A study of Rattus norvegicus with 17 samples.

Results

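The genes described here are 8 steroid hormone receptor, Pgrmc and steroid-converting genes of the rat meibomian gland (MG), the lipid-secreting gland of the eyelid, out of 17251 genes listed. They were Pgrmc1 and Pgrmc2, the nuclear receptors Esr1 and Pgr, the reductases Srd5a1 and Srd5a3, and the dehydrogenases Hsd17b2 and Hsd17b11. The members were taken by gene symbol, all 8 were found, and all 8 passed the filter on low values. Pgrmc2 was picked because its level differed between genotypes, so its values are given as a description with no test, and no genotype comparison of a member was tested. RNA was sequenced from the MG of 17 female Sprague-Dawley rats aged 10 to 12 weeks. The control groups held 4 WT and 5 P1.hMR rats and the UVB groups 3 WT and 5 P1.hMR rats. The P1.hMR rats bear the human mineralocorticoid receptor gene, NR3C2, under its proximal P1 promoter, which is active in every tissue that expresses the receptor, so the transgene was not confined to the gland. In both UVB groups the upper eyelids were shaved and irradiated daily for 5 days. Control rats had no UVB, and shaving is not stated for them, so shaving and UVB cannot be told apart. The study's methods count the irradiated glands in eyes, so a UVB library may hold both eyes of a rat.

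Sex steroids act mostly through nuclear receptors that bind DNA once their hormone is bound, and cells set the local hormone supply with enzymes that make, activate or inactivate the steroid. In the MG and other sebaceous glands, androgens are known to support lipid production, and 5α-reductases turn testosterone into the stronger androgen dihydrotestosterone. Pgrmc1 and Pgrmc2 are not nuclear receptors but small membrane proteins of the MAPR family that bind heme, Pgrmc1 being known as a partner of cytochrome P450 enzymes and Pgrmc2 as a carrier of heme to the nucleus.

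Expression was deposited as TPM, a transcript's share of all transcripts in a library, which is corrected for gene length, so that levels can be compared between genes as well as between rats. TPM keeps no depth, so the number of reads behind each value is unknown. Between 12372 and 12737 genes reached 1 TPM in a rat, and 2 rats of a group correlated over all genes with a Pearson r between 0.9916 and 0.9948. The human transgene was listed at 0 TPM in the 7 WT rats, whereas the 10 P1.hMR rats ranged from 5.31 to 9.31 TPM, as labelled. All 11 markers of meibocytes, the lipid-filled cells of the gland, had a mean of at least 1 TPM over all rats. Their summed level in a rat lay between 38096 and 52781 TPM. Skeletal muscle markers summed to between 1809 and 4130 TPM, so the dissected tissue held more than gland. In such bulk tissue, fewer cells of a type and less RNA per cell cannot be told apart.

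The promoters of Pgrmc2, Srd5a1 and Pgr, the 3 members on which the results turn, are shown for their sequence context. Each holds 300 bases from RefSeq on the GRCr8 build, 250 before and 50 after the gene's start, written 5′ to 3′ on the gene's own strand. The deposited values were made on rn7, a different build. Capitals mark matches on either strand to a GC box (GGGCGG or CCGCCC), an E-box (CACGTG) or a CCAAT box (CCAAT or ATTGG).
Pgrmc2, chr2:126012041-126012340, minus strand: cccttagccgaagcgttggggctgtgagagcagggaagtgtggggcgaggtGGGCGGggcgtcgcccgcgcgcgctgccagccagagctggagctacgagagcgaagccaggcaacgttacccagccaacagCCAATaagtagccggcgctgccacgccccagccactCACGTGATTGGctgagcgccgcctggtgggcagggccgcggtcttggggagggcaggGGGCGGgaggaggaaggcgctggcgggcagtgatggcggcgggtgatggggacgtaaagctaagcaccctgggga
Srd5a1, chr1:35514664-35514963, plus strand: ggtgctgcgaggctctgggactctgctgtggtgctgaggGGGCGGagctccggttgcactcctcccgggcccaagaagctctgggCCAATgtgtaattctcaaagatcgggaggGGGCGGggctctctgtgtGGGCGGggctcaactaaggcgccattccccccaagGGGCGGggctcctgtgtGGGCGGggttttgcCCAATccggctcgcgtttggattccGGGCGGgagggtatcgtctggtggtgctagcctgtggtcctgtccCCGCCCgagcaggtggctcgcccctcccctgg
Pgr, chr8:14354148-14354447, plus strand: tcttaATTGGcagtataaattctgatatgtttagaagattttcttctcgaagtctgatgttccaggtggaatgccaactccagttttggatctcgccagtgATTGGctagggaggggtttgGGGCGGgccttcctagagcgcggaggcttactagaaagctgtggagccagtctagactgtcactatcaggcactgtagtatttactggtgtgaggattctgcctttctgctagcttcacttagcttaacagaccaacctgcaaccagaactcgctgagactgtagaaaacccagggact

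The Srd5a1 promoter held 7 GC boxes, the Pgrmc2 promoter 2 and the Pgr promoter 1, and each held 2 CCAAT boxes. Of 33469 rat promoters of the same length, 33.1% held a GC box and 37.5% a CCAAT box. The E-box, present once in Pgrmc2 and directly beside a CCAAT box there, was found in 6.42% of all promoters. GC content was 69.7% in Pgrmc2, 67.7% in Srd5a1 and 47.7% in Pgr, beside a median of 51.7% over all promoters. The hormone response hexamer (AGAACA or TGTTCT), found in 20.7% of promoters, and the estrogen response hexamer (AGGTCA or TGACCT), found in 16.2%, were in none of the 3 windows. Of the 8 members, 7 had a promoter sequence, and Hsd17b2 had none. Outside the 3 shown, Srd5a3 held the hormone response hexamer and an E-box, and no member with a sequence held the estrogen response hexamer. A match is a description of letters in a window, not a bound site.

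The 8 genes covered a wide range of levels. Averaged over the 17 rats, Pgrmc1 was highest at 843 TPM, ranked 136 of 17251 genes, followed by Pgrmc2 at 404 TPM, ranked 306. Hsd17b2, which oxidises estradiol and testosterone to weaker hormones, lay at 356 TPM, and Srd5a1 at 169 TPM. The other reductase, Srd5a3, known for its part in making dolichol for protein glycosylation, lay at 35.1 TPM. Hsd17b11, a dehydrogenase found on lipid droplets, lay at 12.5 TPM. Esr1, the estrogen receptor alpha, and Pgr, the progesterone receptor, were lowest at 3.31 and 2.89 TPM, ranked 10806 and 11041.

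Most steps in this order held in all rats. Each gene was above the next in 17 of 17 rats except at 2 steps. Pgrmc2 exceeded Hsd17b2 in 14 of 17 rats, with a ratio of the 2 levels between 0.948 and 1.47, and Esr1 exceeded Pgr in 11 of 17 rats, with a ratio between 0.505 and 7.86. At these 2 steps the order was thus not the same in every rat, and no test of it was made. The rats with more Hsd17b2 than Pgrmc2 were all P1.hMR rats, namely Control P1.hMR rat 1 and UVB P1.hMR rats 3 and 4. That rests on the Pgrmc2 values that chose the gene, so it is no separate genotype result. Over all 17 rats, Pgrmc1 varied least, with a coefficient of variation of 7.02%.

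**Figure D1:**
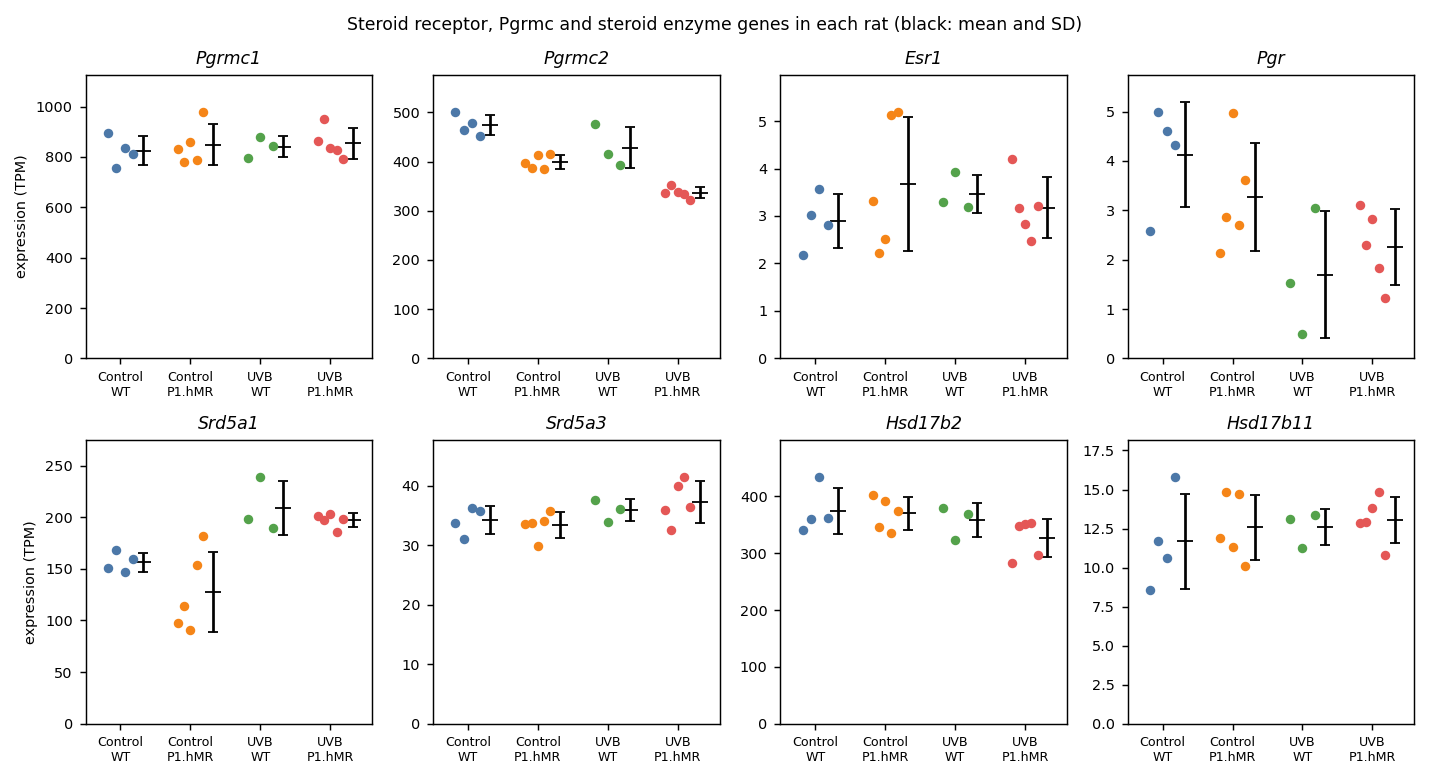
TPM of each of the 8 genes in every rat, by group, with 1 point per rat and the group mean and SD. Pgrmc2 lay lowest in UVB P1.hMR rats, Srd5a1 lay higher in both UVB groups than in the controls of the same genotype, and Pgrmc1 was level across the groups.

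Related genes of the same families set these levels in context. Esr2, the second estrogen receptor, did not exceed 0.09 TPM in any rat, and the membrane estrogen receptor Gper1 did not exceed 0.84 TPM. Among the membrane progestin receptors listed, which were Paqr5, Paqr6 and Paqr7, Paqr6 was highest at 46.0 ± 8.19 TPM (SD, n = 17). Paqr8 and Paqr9 were not listed. The level of Srd5a2, the third reductase, was at most 0.16 TPM, so that Srd5a1 and Srd5a3 were the members of their family above 1 TPM. Of the dehydrogenase family, Hsd17b12, which also elongates fatty acids, was highest at 687 ± 129 TPM (SD, n = 17), above Hsd17b2. Cyp17a1, which makes androgen precursors, lay at 238 ± 77.6 TPM (SD, n = 17), while Cyp19a1, the aromatase that makes estrogens from androgens, did not exceed 0.07 TPM.

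**Figure D2:**
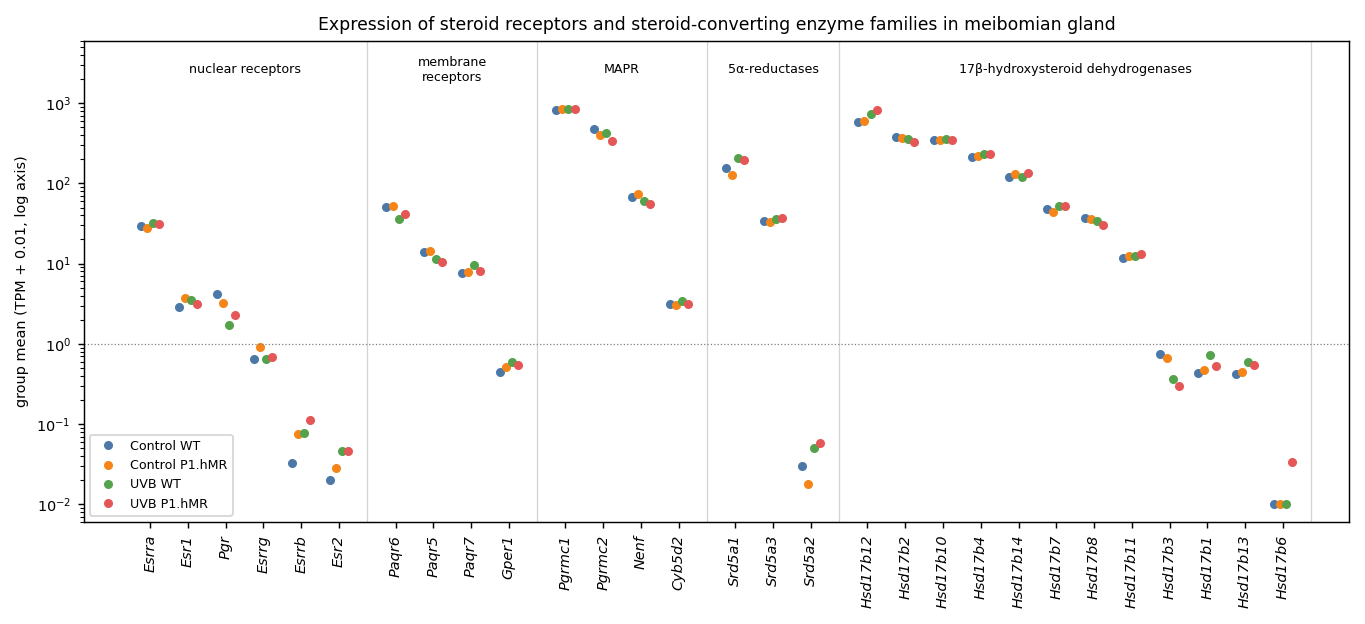
Mean TPM of each group, on a log axis after adding 0.01, for the members and other genes of their families, with 1 point per group and a dotted line at 1 TPM. Esr2 and Srd5a2 lay far below the line in all 4 groups, while Pgrmc1 and Hsd17b12 stood at the top of their families.

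The first question was how UVB exposure changed the members within each genotype. In WT rats, Pgr fell, and none of the other members tested passed the test. In P1.hMR rats, Srd5a1 rose, and none of the other members tested did. A gene was called by limma at a Benjamini-Hochberg adjusted p under 0.05 over 13105 genes and an absolute difference of at least 0.5 in log2(TPM + 1). Adding 1 shrinks the differences of genes with low levels such as Pgr and Esr1. Of the 7 members other than Pgrmc2, 1 was thus called in WT rats, where 7.91% of all genes were called, and 1 in P1.hMR rats, where 10.8% were called. These counts were near the background. The median difference of all genes tested was 0.01 in WT rats and -0.02 in P1.hMR rats.

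Pgr is a gene known in reproductive tissue for being induced by estrogen. Its levels in the 4 Control WT rats were 2.58, 5.0, 4.6 and 4.32 TPM, and in the 3 UVB WT rats 1.53, 0.5 and 3.05 TPM. One UVB rat, at 3.05 TPM, lay above the lowest control, so the groups overlapped, while the other UVB rats lay below all controls. On the log2(TPM + 1) scale Pgr was lower after UVB by a difference of -1.02 (standard error 0.30, adjusted p = 0.0227 from limma), in a comparison where 3.98% of genes were called lower. An exact permutation test on the 7 WT rats alone gave p = 0.0857, two-sided, the smallest possible being 0.0286. The call rested on single rats and on the pooled spread. Without Control WT rat 2, Control WT rat 3, UVB WT rat 1 or UVB WT rat 2 the adjusted p was 0.0579, 0.0538, 0.0516 or 0.135, and with only the 2 groups in the fit it was 0.0780. The difference in these fits was -0.93, -0.96, -1.03, -0.65 and -1.02, and over all single rats left out it ran from -1.37 to -0.65.

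In P1.hMR rats, Pgr lay at 2.14, 2.87, 4.97, 2.71 and 3.62 TPM without UVB and at 3.11, 2.29, 2.83, 1.83 and 1.22 TPM with it. The groups overlapped, and only 2 of the 5 UVB rats lay below all controls. The difference of -0.39 (standard error 0.25) did not pass the test, with an adjusted p = 0.226 from limma. Whether the responses differed between genotypes was tested by the interaction, which for Pgr was 0.63 with a 95% confidence interval from -0.18 to 1.44 and an adjusted p = 0.789. A difference in the Pgr response between genotypes was therefore not shown. At such low levels, at most 5.0 TPM in every rat, the depth that limits the precision is not known.

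Srd5a1 showed the clearest rise among the members tested. Its level in the 5 Control P1.hMR rats was 97.25, 114.11, 90.39, 153.84 and 181.76 TPM, and in the 5 UVB P1.hMR rats 201.14, 197.68, 203.54, 185.86 and 198.03 TPM. Every UVB rat lay above every control, as did 13.2% of all genes in this direction. The controls were widely spread and the UVB rats narrowly, at 127 ± 39.1 TPM (SD, n = 5) against 197 ± 6.8 TPM (SD, n = 5). The difference was 0.68 on the log2(TPM + 1) scale (standard error 0.14, adjusted p = 0.00156 from limma), a 1.6-fold rise, in a comparison where 5.05% of genes were called higher. The exact permutation test gave p = 0.00794, the smallest possible with these group sizes. Srd5a1 was called here in every fit that left out 1 rat, with differences from 0.57 to 0.82.

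In WT rats the Srd5a1 level was 150.61, 167.91, 146.82 and 159.67 TPM without UVB and 198.12, 239.07 and 189.34 TPM with UVB. Again all UVB rats lay above all controls, which held for 14% of all genes in this direction. The difference of 0.41 (standard error 0.17) did not pass the limma test over all genes, with an adjusted p = 0.103, while the exact permutation test gave p = 0.0286, the smallest it can give with 3 and 4 rats. The interaction was 0.27 with a 95% interval from -0.21 to 0.74 and an adjusted p = 0.861, so a larger response in P1.hMR rats was not shown. In all, 14 exact tests were made on members and their p-values were not adjusted.

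Srd5a3 and the dehydrogenases moved less. In P1.hMR rats Srd5a3 ranged from 29.79 to 35.71 TPM without UVB and from 32.49 to 41.46 TPM with it, and 4 of 5 UVB rats lay above all controls. Its difference of 0.15 (standard error 0.065) had an adjusted p = 0.0785 from limma. Hsd17b2 ranged from 334.87 to 402.54 TPM in Control P1.hMR and from 283.29 to 353.14 TPM in UVB P1.hMR rats, with a difference of -0.18 (standard error 0.081, adjusted p = 0.0839). Both pairs of groups overlapped. In WT rats the differences of Srd5a3 and Hsd17b2 were 0.07 and -0.06, with adjusted p = 0.562 and 0.685. Hsd17b11 ranged from 8.58 to 15.81 TPM over all rats, with differences of 0.13 in WT rats and 0.06 in P1.hMR rats, and adjusted p = 0.617 and 0.766.

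Pgrmc1 and Esr1 gave no call either. Mean Pgrmc1 was 825 ± 57.6 TPM (SD, n = 4) without UVB and 840 ± 41.8 TPM (SD, n = 3) with it in WT rats. In the transgenic rats it was 848 ± 80.6 TPM (SD, n = 5) without UVB and 854 ± 60.3 TPM (SD, n = 5) with it. The 95% intervals of the UVB difference of Pgrmc1 ran from -0.14 to 0.20 in WT rats and from -0.13 to 0.15 in P1.hMR rats on the log2(TPM + 1) scale, so the data bound a change in either direction at about these sizes. Esr1, with differences of 0.21 in WT rats and -0.12 in P1.hMR rats, had wider intervals, from -0.24 to 0.65 and from -0.49 to 0.24. In Control P1.hMR rats, Esr1 lay between 2.22 and 3.32 TPM in 3 rats and at 5.12 and 5.2 TPM in the other two.

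Pgrmc2 differed between UVB and control rats as well, given here without a test. In WT rats it lay at 501.75, 464.62, 479.1 and 452.18 TPM without UVB and at 475.67, 416.42 and 393.86 TPM with UVB. The groups overlapped, with 2 of 3 UVB rats below all controls and a difference of -0.15 (standard error 0.058), which ran from -0.23 without UVB WT rat 1 to -0.09 without UVB WT rat 3. In P1.hMR rats it lay at 397.32, 387.95, 413.4, 384.09 and 415.79 TPM without UVB and at 335.51, 352.42, 338.93, 334.77 and 321.66 TPM with UVB. All 5 UVB rats lay below all controls there, as in 14% of all genes in this direction, with a difference of -0.25 (standard error 0.048). The difference between the responses was -0.10 (standard error 0.075), and ran from -0.16 without UVB WT rat 3 to -0.02 without UVB WT rat 1.

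Summed marker levels of other cell types moved with UVB too. The 8 mitosis markers summed to between 103 and 122 TPM in Control WT and between 158 and 226 TPM in UVB WT rats. In P1.hMR rats the range was from 97.7 to 131 TPM without UVB and from 136 to 210 TPM with it. In WT rats, the 4 listed endothelial markers summed to between 29.2 and 36.1 TPM without UVB and between 40.9 and 49.2 TPM with it. The mitosis ranges did not overlap in either genotype, whereas the endothelial ranges, the basal and ductal keratinocyte ranges (9492 to 11486 and 11494 to 13084 TPM), the melanocyte ranges (67.5 to 127 and 50.5 to 59.4 TPM) and the goblet cell ranges (1.19 to 2.78 and 3.32 to 12.5 TPM) did not overlap in WT rats but did in P1.hMR rats. Meibocyte markers overlapped between control and UVB rats, at means of 47767 and 42513 TPM in WT rats and 45746 and 41327 TPM in P1.hMR rats. The part of these markers in the differences of Pgr, Srd5a1 and Pgrmc2 was not tested.

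**Figure D3:**
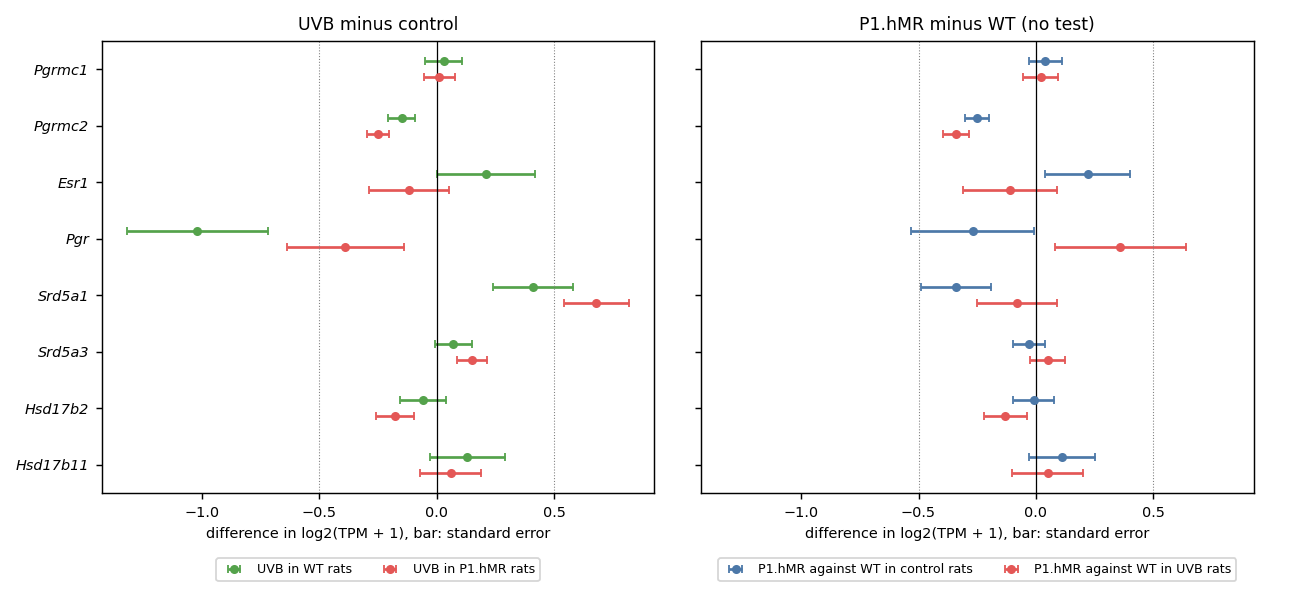
Differences in log2(TPM + 1) of the 8 genes with their standard errors, UVB minus control in each genotype on the left and P1.hMR minus WT in each treatment on the right. Pgr in WT rats at -1.02 and Srd5a1 in P1.hMR rats at 0.68 were the called differences, and the differences of Pgrmc2, all below 0, were not tested.

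The second question was how the members differed between P1.hMR and WT rats with and without UVB. Because Pgrmc2 was chosen on this contrast, the values below are a description. Over all genes, 1 gene was called in control rats (0.00763% of genes) and 3 in UVB rats (0.0229%). The human transgene NR3C2 was among the genes tested, so these counts can include it. Its difference in log2(TPM + 1) was 3.19 in control and 2.89 in UVB rats, with no overlap between genotypes. Without UVB, mean Pgrmc2 was 474 ± 21.3 TPM (SD, n = 4) in WT rats and 400 ± 14.4 TPM (SD, n = 5) in transgenic rats, where it was 15.7% lower. The highest P1.hMR rat, at 415.79 TPM, lay 36.39 TPM below the lowest WT rat, at 452.18 TPM. After UVB it was 429 ± 42.3 TPM (SD, n = 3) in WT rats against 337 ± 11 TPM (SD, n = 5) in transgenic rats, and the gap between the groups was 41.44 TPM. The differences in log2(TPM + 1) were -0.25 (standard error 0.051) and -0.34 (standard error 0.055). Genes lower in P1.hMR rats with no overlap made up 0.61% of genes tested in control and 4.14% in UVB rats, and 6 genes, Pgrmc2 among them, did so in both (0.0458%).

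The other 7 members overlapped between genotypes in both treatments. Srd5a1 had a genotype difference of -0.34 (standard error 0.15) in control and -0.08 (standard error 0.17) in UVB rats, with Control P1.hMR rats 4 and 5 within or above the range of Control WT rats. For Pgr the differences were -0.27 and 0.36, of opposite sign, and without UVB WT rat 2 the second was -0.01. Those of Pgrmc1, Srd5a3 and Hsd17b2 lay between -0.13 and 0.05. Esr1 differed by 0.22 and -0.11 and Hsd17b11 by 0.11 and 0.05, in control and UVB rats.

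Within each rat, the level of Pgrmc2 relative to its paralog Pgrmc1 followed the same pattern. Without UVB the ratio was 0.576 ± 0.0259 (SD, n = 4) in WT rats and 0.473 ± 0.0284 (SD, n = 5) in P1.hMR rats. With UVB it was 0.512 ± 0.0732 (SD, n = 3) in WT rats and 0.395 ± 0.0156 (SD, n = 5) in P1.hMR rats. In both treatments the highest P1.hMR ratio, at 0.497 and 0.406, lay below the lowest WT ratio, at 0.557 and 0.467. This ratio rests on the Pgrmc2 values that chose the gene. Among the 12 marker lists, goblet cell markers had no overlap between genotypes in control rats. These were only 2 listed genes at low TPM, summing to 1.19 to 2.78 TPM in WT and 2.85 to 10.7 TPM in P1.hMR. The 2 ranges nearly touched. In UVB rats melanocyte markers had no overlap, at 50.5 to 59.4 TPM in WT and 70.2 to 123 TPM in P1.hMR. Adipocyte markers summed to 32.2 to 43.0 TPM in UVB WT and 43.2 to 71.2 TPM in UVB P1.hMR rats. Their part in the Pgrmc2 difference was not tested, and no marker list was apart in both treatments.

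The genes next in order to Pgrmc2 on chromosome 2 were looked at beside it, with their order taken from RefSeq on GRCr8. These were the 4 protein-coding genes tested on each side, taken by order and not by distance. Of these 8 genes, Larp1b had no overlap between genotypes in control rats, with a difference of -0.19 in log2(TPM + 1). Mfsd8 had none in UVB rats, with -0.22. The Mfsd8 ranges nearly touched there, up to 28.52 TPM in P1.hMR rats and from 28.55 TPM in WT rats. Over all genes, 0.61% and 4.14% were lower in P1.hMR rats with no overlap in these comparisons. In the other treatment both overlapped, with differences of -0.12 for Larp1b and -0.20 for Mfsd8, the latter with ranges up to 30.47 TPM in P1.hMR rats and from 30.33 TPM in WT rats. The remaining 6 neighbours overlapped in both treatments. Their differences ran from -0.27 for Pcdh10 to 0.10 for Pcdh18 in control rats and from -0.13 to 0.07 in UVB rats. Pcdh10 did not exceed 1.28 TPM in any rat. Of the 8 genes, only Abhd18 and Pcdh18 lay above 0 in control rats and only Pcdh18 in UVB rats. The median over all genes tested was 0 in control and -0.02 in UVB rats.

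The wider pathway was described from lists of 84 other receptor, enzyme, chaperone, coregulator and heme genes, of which 77 were listed and 63 tested. In WT rats 1 of the 63 was called after UVB, Akr1c3, and in P1.hMR rats 5 were, all of them on the lists of steroid-converting and sulfation enzymes. Over all genes tested, 7.91% and 10.8% were called, so neither count stood above the background. No gene of the receptor, MAPR, dehydrogenase, chaperone, coregulator or heme lists was called in either genotype. Their median differences ran from -0.36 for the 3 membrane receptors tested to 0.21 for the 10 chaperones, both in P1.hMR rats.

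The called enzymes were mostly aldo-keto reductases, which interconvert ketosteroids and hydroxysteroids. Akr1c19 fell in P1.hMR rats from a mean of 3.96 ± 1.98 TPM (SD, n = 5) to one of 0.796 ± 0.298 TPM (SD, n = 5), with a difference of -1.41 (standard error 0.25, adjusted p = 0.000437 from limma). Akr1c1 fell by 0.92 and Akr1c14, a reductase of dihydrotestosterone, rose by 0.78, with adjusted p = 0.00313 and 7.27e-05. Like Akr1c19, both were measured at low TPM, with means of 4.23 and 1.7 TPM for Akr1c1 and 2.61 and 5.2 TPM for Akr1c14 without and with UVB. Akr1c2 and Sult2b1, a cholesterol and steroid sulfotransferase, rose by 0.64 and 0.62, with adjusted p = 0.0161 and 7.27e-05, and were named after their values were seen. In WT rats Akr1c3 fell from a mean of 229 ± 27.6 TPM (SD, n = 4) to one of 162 ± 41.3 TPM (SD, n = 3), with a difference of -0.52 (adjusted p = 0.0313). Each of these genes had a difference of the same sign in the other genotype, where it was not called. It was -0.37 for Akr1c3 in P1.hMR rats. In WT rats it was -0.82 for Akr1c19, -0.64 for Akr1c1, 0.32 for Akr1c14, 0.23 for Akr1c2 and 0.24 for Sult2b1. No interaction of these genes was called, so a response particular to a genotype was not shown. The Akr1c genes are related paralogs between which reads may be split, which was not tested, so their single values are uncertain.

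Smaller differences passed the adjusted p without reaching the size of a call. In P1.hMR rats these included Hsd17b12 at 0.48, Nenf, a MAPR relative of the Pgrmc genes, at -0.39, and the steroid sulfatase Sts at -0.42, with adjusted p = 0.00174, 0.00394 and 0.00193. Paqr6 differed by -0.48 in WT rats and -0.36 in P1.hMR rats, with adjusted p = 0.00637 and 0.00481. Paqr5 was lower still in P1.hMR rats, at -0.42 (adjusted p = 0.00546). Paqr7 went the other way in WT rats, at 0.29 (adjusted p = 0.00667), and differed by 0.05 in P1.hMR rats (adjusted p = 0.517). At an adjusted p alone, 39.1% of all genes passed in P1.hMR and 21.5% in WT rats. These genes were named to show the extremes of their lists, in WT rats, P1.hMR rats or both. In the interaction, none of the 13105 genes was called by limma, and 907 (6.92%) had an unadjusted p under 0.05.

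**Figure D4:**
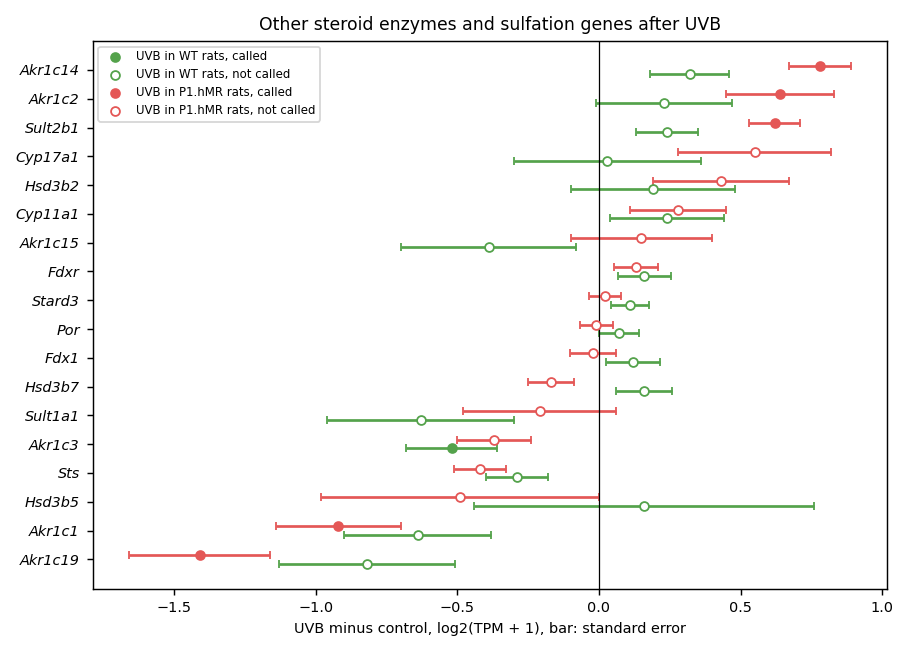
Differences in log2(TPM + 1), UVB minus control, of the other steroid enzymes and sulfation genes tested in each genotype, with standard errors and filled points for called genes. Akr1c14, Akr1c2 and Sult2b1 were called higher and Akr1c1 and Akr1c19 lower in P1.hMR rats, and Akr1c3 was called lower in WT rats.

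Last, the members were compared with each other and with all genes across rats, after the mean of each of the 4 groups was subtracted. Of the 28 pairs of members, none passed adjustment. Esr1 and Srd5a1 were most alike, with a Pearson r of 0.72 (permutation p = 0.0520, adjusted 0.566) and a Spearman rho of 0.69 (permutation p = 0.0217, adjusted 0.428) over 17 rats, and r = 0.67 without the 2 rats farthest from the median. Control P1.hMR rats 4 and 5 were the highest of their group for both genes. Pgrmc1 and Pgrmc2 had an r of 0.41 (permutation p = 0.0858, adjusted 0.566) and a rho of 0.49 (permutation p = 0.0683, adjusted 0.478), which fell to r = 0.25 without the 2 farthest rats.

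Across all genes tested, the patterns most like those of the members, by the same measure over 17 rats that share libraries and composition, are a description. Pgrmc2 was most like Aadac (r = 0.90), Tbc1d19 (0.81) and Wwp2 (0.80), and Pgrmc1 most like Tmeff1 (0.87), LOC691807 (0.86) and Rab14 (0.84). Srd5a1 was most like Tsc22d2 (0.91), Msl2 (0.86) and Crtc1 (0.86), and Srd5a3 most like Ube3d (0.88), AABR07032821.1 (0.86) and Ncapd3 (0.85). Esr1 was most like Smad1 (0.86), Mettl23 (0.86) and Ahsp (0.84), and Pgr most like Fzd10 (0.82), Fam180a (0.80) and Trpc1 (0.78). Hsd17b11 was most like Il21r (0.94), Rassf4 (0.93) and Ctss (0.93), and Hsd17b2 most like AABR07034648.1 (0.84), Krt12 (0.78) and Pdzk1ip1 (0.77). Without the 2 rats farthest from the member's median, r ran from 0.61 for Pdzk1ip1 with Hsd17b2 to 0.93 for Il21r with Hsd17b11. For Pgrmc2 it was then 0.83 with Aadac, 0.64 with Tbc1d19 and 0.65 with Wwp2. Ahsp, Fam180a and Il21r were measured at low levels, with means of 0.766, 1.06 and 1.07 TPM. No gene appeared under more than 1 member.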

How the data were processed

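RNA from the MG of 17 rats, 1 library per rat, was sequenced and the authors deposited TPM for 17251 genes. The study's methods name FastQC, STAR and RSEM, while the submitters' processing notes name FastQC, Trimmomatic, DRAGEN and Picard, so which tools made the TPM is not settled. Both give the rn7 build. TPM keeps no depth, and no counting interval was computed. Precision came from the spread between rats.

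Groups came from the deposited labels. The limma package (3.58.1, R 4.3.3) fitted the 4 group means to log2(TPM + 1) with a variance trend, for the 13105 genes that reached 1 TPM in 3 or more rats. Tests were two-sided. DESeq2, the study's own test, takes counts and was not run. Exact permutation tests of UVB against control used the rats of 1 genotype, and pairs of members were tested with 100000 permutations in Python 3.11.15 (numpy 2.4.6, pandas 2.3.3), and figures were drawn with matplotlib 3.10.9. The model was tested on simulated data. Members, lists and markers were chosen with earlier results of these data known. The genes named were the members, the 3 called list genes that changed most after UVB in each genotype, genes showing a list's extremes, and the 3 genes most like each member. The alternatives were 11 settings of pseudocount, filter, scaling, samples, variance model, weights, replicate block, muscle covariate and threshold, and each of the 17 rats left out in turn. Some list genes are not reported here.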

Additional observations from a re-analysis of the deposited data

How the results depend on the processing

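Leaving out 1 rat at a time, Srd5a1 was called in P1.hMR rats in every fit, and under the 11 other settings too, with adjusted p from 0.000107 to 0.0071. The call of Pgr in WT rats made up the count of 1 member there. It fell to 0 with a mean of at least 5 TPM, where Pgr was not tested, and to 0 with only the 2 groups compared, and ran from 0 to 1 without single rats. The count of members called was 1 in P1.hMR rats under all settings and 0 for the interaction under those run for it, a fit of only 2 groups being impossible there.

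Over all genes, those called after UVB in WT rats were 690 with a mean of at least 5 TPM, 2820 with no fold change threshold and 927 to 1100 without single rats, against 1036. In P1.hMR rats they were 882, 5123 and 1290 to 1457, against 1410. For genotype in control rats the count of 1 became 0 with a mean of at least 5 TPM and ran from 1 to 6, the 6 without Control WT rat 4. The transgene, at 0 TPM in the 7 WT rats, may not reach that mean. For genotype in UVB rats the count of 3 became 1 with a pseudocount of 0.1, 0 with a mean of at least 5 TPM, 1 with only the 2 groups, 1 with the replicate block and 5 with the muscle covariate, and ran from 1 to 51. It was 51 without UVB WT rat 3, 5 without Control WT rat 4 or UVB P1.hMR rat 2, and 1 without UVB WT rat 1 or 2 or UVB P1.hMR rat 1, 3 or 4. The interaction ran from 0 to 8, with 8 without UVB WT rat 3 and 1 without Control WT rat 4. Without single rats Pgrmc2 kept its sign, from -0.27 to -0.22 for genotype in control and -0.40 to -0.27 in UVB rats, and from -0.23 to -0.09 for UVB in WT and -0.26 to -0.23 in P1.hMR rats. Its interaction ran from -0.16 to -0.02.

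Among the tested differences of members, signs changed only for uncalled ones near 0. Pgrmc1 was -0.04 in WT rats and -0.03 in P1.hMR rats with the muscle covariate, and -0.01 in P1.hMR rats with array weights. Without single rats it ran from -0.01 to 0.07 and from -0.03 to 0.06. Its interaction was 0.01 with median-of-ratios scaling, 0.01 with the muscle covariate and -0.06 to 0.04 without single rats. Hsd17b2 ran from -0.11 to 0.01 in WT rats, and Hsd17b11 from -0.01 to 0.12 in P1.hMR rats and -0.21 to 0.06 for the interaction. The causes were not tested.

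With the replicate block, 1019 genes were called after UVB in WT rats and 1400 in P1.hMR rats, and no call of a member changed. The labels give no pairing of rats with the same number. The median correlation was -0.01 over 22 same-number pairs against 0.01 over 85 others, and the highest was 0.24 against 0.18. Such a summary over all genes cannot show whether some rats shared a batch. Rats are few, depth is unknown, and Pgr and Esr1 are measured at low TPM.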
